A study of Mus musculus with 65 samples.

Results

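The p0-1 progenitors of the neural tube were followed from day 5 to day 6 of differentiation in 12 of the 65 RNA libraries of the series. Members were chosen by label, as every library of p0-1 cells sorted on these days. There were 6 libraries a day, 3 each from cultures without SAG and with 10 nM SAG, a small molecule that switches on Smoothened and so stands in for Sonic hedgehog (Shh). HM1 mouse embryonic stem (ES) cells, kept on feeder cells before use, were taken to spinal cord fates with bFGF, then with bFGF, CHIR99021, SB-431542 and DMH1, and from day 3 with 100 nM retinoic acid, which every culture compared here received. Cells were fixed, stained for transcription factors inside the cell, selected for SOX2 and sorted, and p0-1 was the gate positive for PAX6 and negative for NKX6.1. No genotype other than that of the line was involved. The p0-1 and p2 cells at 10 nM came from the same dish. The labels call the replicates biological without saying whether a number marks a shared day, so the p-values measure the spread between these libraries.

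In the embryo the p0 and p1 domains lie midway along the dorsoventral axis of the spinal cord and give rise to V0 and V1 interneurons. Such progenitors divide under the control of Notch signalling, in which a cell that begins to differentiate presents Delta ligands to its neighbours and leaves the cell cycle. In mouse embryos the same progenitors change with time: early regulators such as Lin28a and Trim71 decline, miR-9 and neuronal genes appear, and gliogenic genes follow.

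The libraries matched their gate. Nkx2-2 had 0 reads in all 12 libraries, Nkx6-1 reached at most 67.5 normalised reads (read counts divided by a size factor for each library), and Olig2 was at 0 in 10 libraries and reached 102.6 in the third 10 nM library of day 5. Pax6 ran from 1989 to 6208 and Dbx1, a p0 factor, from 917.1 to 3475. Sox2, on which the cells were selected, was at 2371 ± 553 on day 5 and 1538 ± 386 on day 6 (SD, n = 6 a day). Its log2 change was -0.63, with an adjusted p of 0.59 in the limma fit described next. The libraries held 8646849 to 12383601 reads in genes and 11686 to 13833 genes with at least 1 read. The mean total was 9699898 ± 1066297 reads on day 5 and 10357355 ± 1184552 on day 6. In an exact two-sided permutation test that exchanged libraries within SAG concentration (400 arrangements, smallest possible p 0.005), neither total reads (p = 0.39), nor genes detected (p = 0.235), nor the share of reads in the 10 most abundant genes (p = 0.465) passed, and each had an adjusted p of 0.465 over the 3 measures. Genes detected were 12493 ± 573 on day 5 and 13052 ± 825 on day 6, so day 6 libraries held 559 more on average.

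To ask which genes changed between the days, limma was fitted to log2(normalised reads + 1) over 13964 genes, the model holding 1 mean per group for the 25 groups of the series. The change is the mean of the changes at 0 and 10 nM. A gene was called when its Benjamini-Hochberg adjusted p was under 0.01 and its change over 2-fold. By this rule 9 genes were called, 0.0645% of those tested. Mir9-3hg, Cyp26b1, Pth1r, Srgap3, Rhbdl3 and Tcf7l2 rose (6 genes, 0.043%) and Cpn1, Grb7 and Gpx3 fell (3 genes, 0.0215%). In 8 of the 9 genes the day 5 and day 6 libraries did not overlap, which held for 92 of all genes tested (0.659%). These calls rest on the spread estimated over all 65 libraries. A fit of the 12 libraries alone, with SAG as a block, called 0 genes, with 1082 at an unadjusted p under 0.05. In that fit the adjusted p of the 9 genes ran from 0.0183 for Tcf7l2 to 0.463 for Srgap3, and edgeR on the recovered reads called 4 genes, of which Gpx3, Rhbdl3 and Tcf7l2 were among the 9. DESeq2 called 488 genes, 8 of the 9 among them. Without the first 0 nM library of day 6 the fit called 0 genes, with a highest adjusted p of 0.0347 over the 9 genes whichever library was left out. At an adjusted p under 0.05, whatever the fold, 33 genes passed (0.236%), of which 23 were higher (0.165%) and 10 lower (0.0716%) on day 6. At an unadjusted p under 0.05 there were 1086 (7.78%). The median change over all genes was 0.07 and the median standard error 0.83 on the log2 scale, and 33.5% of genes had a standard error under 0.5.

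**Figure D1:**
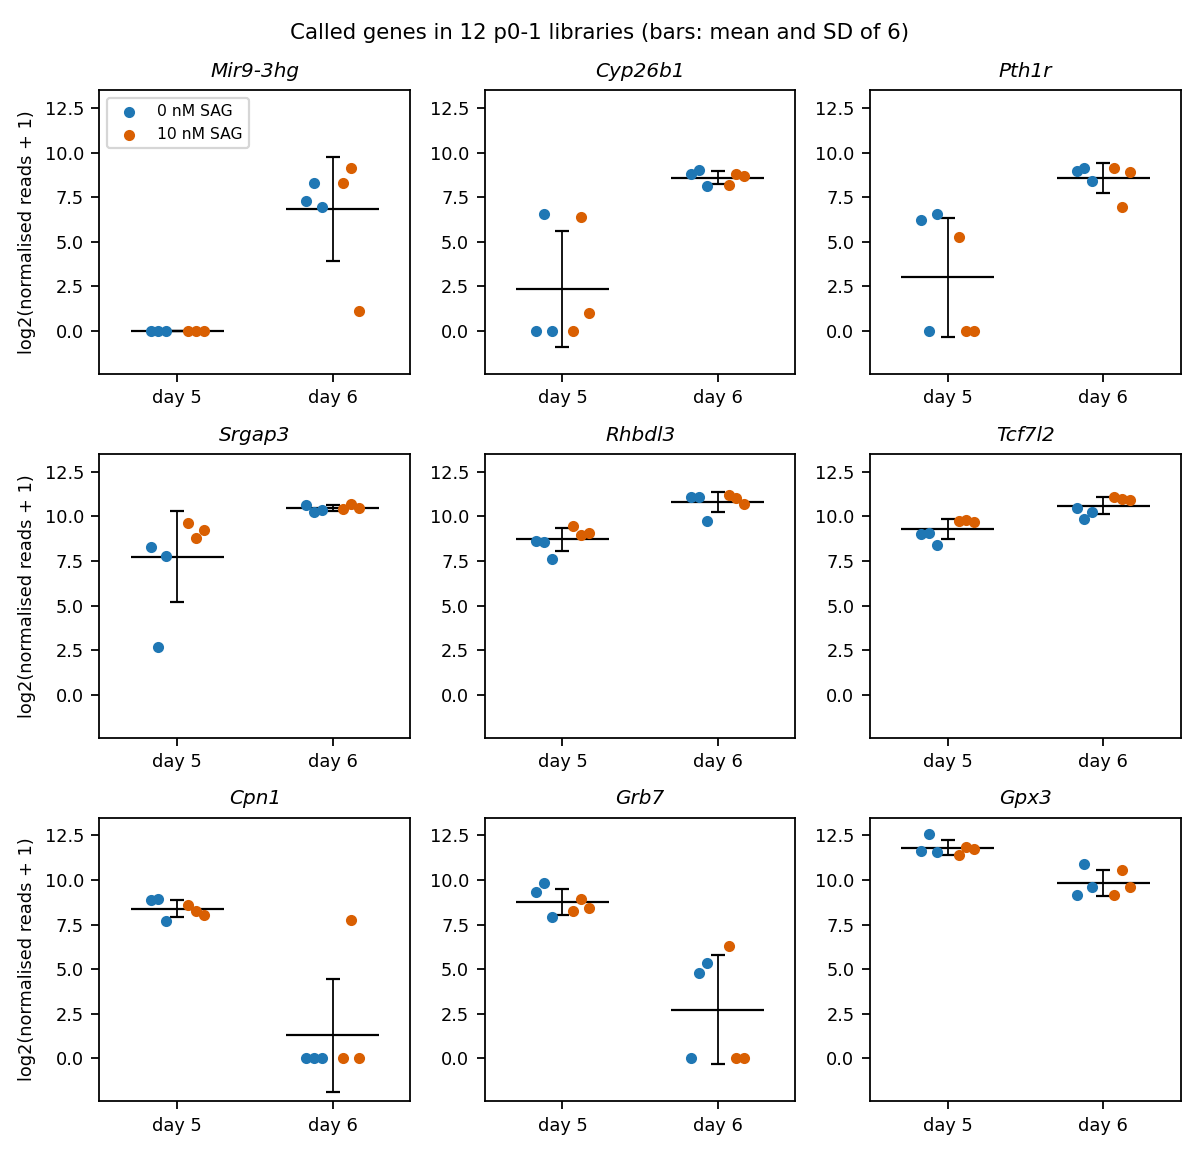
Values of the 9 called genes in the 12 p0-1 libraries, as log2(normalised reads + 1) on the y axis by day on the x axis; each point is a library, coloured by SAG concentration, and the bars give the mean and SD of 6 libraries. The days separate in every panel except Cpn1, where the second 10 nM library of day 6, at 218.7 normalised reads, lies within the day 5 range.

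The gene with the largest rise carries a miRNA. Mir9-3hg (mm10 chromosome 7, 79500026 to 79534403, plus strand) is the host transcript of miR-9-3, a neural miRNA known to act on progenitor genes. It had 0 reads in all 6 libraries of day 5. On day 6 it was at 156.0, 318.9 and 122.7 normalised reads at 0 nM and at 307.0, 563.8 and 1.14 at 10 nM. All 6 libraries of day 6 thus had reads, although the third at 10 nM had almost none. The day 6 mean of 244.9 ± 196.6 was at least 81.7-fold higher than the 3 reads a library that a count of 0 allows, a limit that covers counting error only. The fitted log2 change was 6.85 (limma, SE 1.26, adjusted p = 0.00484).

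C130071C03Rik (chromosome 13, 83721381 to 83741308, plus strand), the host transcript of miR-9-2, was higher as well but missed the threshold. Its day 5 values were 0, 0 and 6.33 at 0 nM and 202.4, 19.6 and 263.0 at 10 nM. On day 6 they were 1191, 603.8 and 1837 at 0 nM and 990.1, 1335 and 1545 at 10 nM, with no overlap between the days. The mean went from 81.9 ± 118.6 to 1250 ± 431, 15.3 times as much, and the log2 change was 6.38 (limma, SE 1.30, adjusted p = 0.0113). Exons of this transcript overlap Mir9-2 itself and Gm51268 on the other strand, and whether the counting used strand is not stated.

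Both hairpins carry identical mature miRNAs, which is why the hosts are set side by side. The sequences are those of RefSeq (GRCm38.p6), with the arms of each hairpin in capitals and, in the mature forms, the seed (bases 2 to 8) in capitals.
Mir9-3 hairpin, chr7:79505264-79505353, plus strand, in an intron of Mir9-3hg: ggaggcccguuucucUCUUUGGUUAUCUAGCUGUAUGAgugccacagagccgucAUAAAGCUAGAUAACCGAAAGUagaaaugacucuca
Mir9-2 hairpin, chr13:83738814-83738885, plus strand, in an exon of C130071C03Rik: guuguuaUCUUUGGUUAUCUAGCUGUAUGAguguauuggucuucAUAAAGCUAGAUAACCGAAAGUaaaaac
miR-9-5p: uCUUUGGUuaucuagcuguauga
miR-9-3p: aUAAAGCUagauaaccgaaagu
Mature miRNAs have no poly(A) tail and were not measured by this assay. The row of Mir9-2 was at 0 in all 12 libraries and that of Mir9-3 had reads in 3, at most 2.03 normalised reads.

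The 3′ untranslated regions of the annotation were searched for the sequence complementary to the miR-9-5p seed, ACCAAAG, on the transcript strand. It was present in 2006 of 12877 tested genes with such a region (15.6%). Their median log2 change was 0.09, against 0.06 for the genes without it, a difference that was not tested. For AGCTTTA, the complement of the miR-9-3p seed, present in 1730 genes (13.4%), the medians were 0.10 and 0.06. Of the 33 genes at an adjusted p under 0.05, 6 held AGCTTTA (13.4% of all genes with such a region did). Among these, Prtg and Trim71 were lower on day 6, and Hspa5, Bmp1, Rnd3 and S1pr1 were higher. ACCAAAG was held by 5 of the 33, near the 15.6% of all genes with such a region. Prtg held 3 matches to ACCAAAG and Trim71 held 2, and both were lower on day 6, while Srgap3, Rhbdl3 and Bmp1, all higher on day 6, held 1 each. The first match of each of these 5 genes is shown in capitals with its flanks.
Prtg: tcaattctgttACCAAAGaatt
Trim71: aaaaaacctgtACCAAAGaata
Srgap3: aattaaaactgACCAAAGacaa
Rhbdl3: ctagagggaagACCAAAGcact
Bmp1: cagatgtgaagACCAAAGacct
A match describes the letters of the sequence and does not show binding by the miRNA.

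Retinoic acid, present in the medium throughout, is broken down by CYP26 enzymes, and one of them rose. Cyp26b1 (chromosome 6, 84571414 to 84593908, minus strand) had day 5 values of 0, 93.99 and 0 at 0 nM and 0, 83.99 and 1.02 at 10 nM. On day 6 the values were 440.1, 517.4 and 275.8 at 0 nM and 291.9, 444.1 and 409.8 at 10 nM. Every day 6 library was above every day 5 library, and the mean was 13.3 times as high (29.8 ± 45.9 and 396.5 ± 94.3). The log2 change was 6.27 (limma, SE 1.19, adjusted p = 0.0055). DESeq2 gave this gene an adjusted p of 0.217.

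The other 17 tested genes of the retinoic acid list gave no call, and the list had no common direction. Of 18 tested members, 8 had a change above 0 (54.5% of all genes did), and the median was -0.03. At an unadjusted p under 0.05, 3 were higher and 2 lower, against 5.01% and 2.77% of all genes. Crabp2, a cytoplasmic retinoic acid binding protein, was the member nearest the threshold on the lower side. Its 6 values ran from 9603 to 10878 on day 5 and from 4651 to 7599 on day 6, with no overlap, for a log2 change of -0.61 (limma, SE 0.15, adjusted p = 0.0535). Crabp1, its paralogue, was at 3776 ± 750 and 2249 ± 949 (log2 change -0.82, limma adjusted p = 0.618). Dhrs3, which returns retinaldehyde to retinol, was at 874.6 ± 462.9 and 1792 ± 571 (log2 change 1.51, limma adjusted p = 0.446). The summed level of the list ran from 23829 to 27471 normalised reads on day 5 and from 22615 to 26030 on day 6.

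The promoter of Cyp26b1 is shown because it was the called retinoic acid gene, from 250 bases before to 50 bases after its RefSeq start (GRCm38.p6, chr6:84593761-84594060, minus strand).
Cyp26b1: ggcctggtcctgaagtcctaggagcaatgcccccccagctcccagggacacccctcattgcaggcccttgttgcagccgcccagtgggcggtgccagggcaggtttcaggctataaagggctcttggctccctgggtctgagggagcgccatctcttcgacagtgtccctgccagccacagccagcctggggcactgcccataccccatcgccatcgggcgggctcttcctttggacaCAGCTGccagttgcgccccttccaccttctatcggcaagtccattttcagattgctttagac
It held no match to AGGTCA, the half-site of retinoic acid receptors, on either strand, which says only that these letters are not in this window. AGGTCA was found in 16.04% of promoters and in 11.75% of the 10955 promoters of tested genes. The capitals mark CAGCTG, an E-box of the kind bound by proneural factors, which starts 12 bases before the gene start. It was found in 16.1% of 27025 promoters of this length and in 14.92% of those of tested genes. Promoters were matched for 7 of the 9 called genes, of which 2 (Cpn1 and Cyp26b1) held CAGCTG and 0 held AGGTCA.

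The other genes that rose encode a receptor, a transcription factor and proteins of the cytoskeleton and membrane. Pth1r (chromosome 9, 110722085 to 110747145), the receptor of parathyroid hormone and its related peptide, was at 72.9, 0 and 93.8 at 0 nM and at 37.0, 0 and 0 at 10 nM on day 5. On day 6 it was at 492.4, 567.0 and 341.7 at 0 nM and at 552.7, 123.5 and 477.0 at 10 nM. The lowest day 6 library stood above the highest of day 5, the mean was 12.5 times as high, and the log2 change was 5.58 (limma, SE 0.97, adjusted p = 0.00282).

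Tcf7l2 (chromosome 19, 55741810 to 55933655), a transcription factor through which Wnt signals reach the genome, had the smallest adjusted p among the genes that rose. Its day 5 values were 518.9, 541.1 and 331.0 at 0 nM and 865.2, 891.2 and 832.8 at 10 nM. Its day 6 values were 1410, 937.4 and 1221 at 0 nM and 2161, 1999 and 1908 at 10 nM. The days did not overlap at either concentration, and on both days the 10 nM libraries were the higher ones. The mean rose 2.42 times, by 1.30 ± 0.22 on the log2 scale (SE, limma adjusted p = 0.00206).

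Srgap3 (chromosome 6, 112717972 to 112947266), an srGAP protein that binds Robo receptors and regulates Rac in outgrowing neurites, was at 304.3, 5.47 and 220.3 at 0 nM and 785.8, 448.3 and 607.3 at 10 nM on day 5. On day 6 its libraries lay close together, from 1211 to 1657. The log2 change was 2.73 (limma, SE 0.51, adjusted p = 0.00484), made up of 4.16 at 0 nM and 1.30 at 10 nM. The larger value contains the single library at 5.47. Rhbdl3 (chromosome 11, 80300912 to 80355986), a rhomboid-like membrane protein, went from between 192.9 and 688.9 on day 5 to between 845.6 and 2360 on day 6, without overlap. Its mean was 4.2 times as high, and the log2 change was 2.10 (limma, SE 0.41, adjusted p = 0.0062).

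The 3 genes that fell had been higher still on day 4. Gpx3 (chromosome 11, 54902854 to 54910387), a secreted glutathione peroxidase, was the most abundant. Its day 5 values were 3199, 6128 and 3080 at 0 nM and 2677, 3759 and 3443 at 10 nM. On day 6 they were 577.2, 1874 and 779.7 at 0 nM and 561.8, 1500 and 779.8 at 10 nM. No library of day 6 reached the lowest of day 5. The mean was 3.67 times lower, with a log2 change of -1.98 (limma, SE 0.33, adjusted p = 0.00206). The 5 libraries of p0-1 on day 4 had a mean of 10508, with a range of 7747 to 14073.

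Grb7 (chromosome 11, 98446834 to 98455373), an adaptor of receptor tyrosine kinases, was at 633.8, 908.9 and 239.3 at 0 nM and 309.1, 485.4 and 344.3 at 10 nM on day 5. On day 6 it was at 0, 26.7 and 39.5 at 0 nM and at 78.1, 0 and 0 at 10 nM. The 2 days were far apart, with a log2 change of -6.04 (limma, SE 1.13, adjusted p = 0.00507). Its day 4 mean was 1254. Cpn1 (chromosome 19, 43956308 to 43986520), the catalytic chain of carboxypeptidase N, had day 5 values of 463.6, 485.5 and 207.7 at 0 nM and 390.7, 306.5 and 260.0 at 10 nM. Of the day 6 libraries, 5 had 0 reads and the second at 10 nM had 218.7, above the lowest day 5 library. The log2 change was -7.10 (limma, SE 1.34, adjusted p = 0.00522), and the day 4 mean was 826.2.

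Prtg, Trim71 and Lin28a were also lower in the 6 libraries of day 6 on average than on day 5. Prtg (protogenin, chromosome 9, 72807274 to 72917307), a surface protein of the immunoglobulin superfamily, was at 10272, 9984 and 14158 at 0 nM and 11880, 12929 and 15020 at 10 nM on day 5. On day 6 it was at 5893, 7287 and 8328 at 0 nM and 5120, 6380 and 9443 at 10 nM, below every library of day 5. Its adjusted p passed (limma, 0.00324) but its change of -0.82 (SE 0.15, log2) was under 2-fold, so it was not called. Trim71, the mouse LIN-41, was at 3195 ± 295 and 2049 ± 449, a log2 change of -0.66 (limma, SE 0.16, adjusted p = 0.0438). Lin28a, an RNA-binding protein that blocks let-7 processing, was at 858.6 ± 345.1 and 466.3 ± 263.1, with overlap and a limma adjusted p of 0.417. Over the 21 tested members of the developmental timing list the median log2 change was -0.10, with 10 members above 0 (54.5% of all genes were). At an unadjusted p under 0.05, Lin28a, Trim71 and Nr6a1 were lower and Pou2f2 and Pou3f3 higher, against 2.77% and 5.01% of all genes. Pou3f3 (Brn1), a POU factor, had 6 values from 156.8 to 310.8 on day 5 and from 633.7 to 991.9 on day 6, yet its adjusted p in limma was 0.477.

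**Figure D2:**
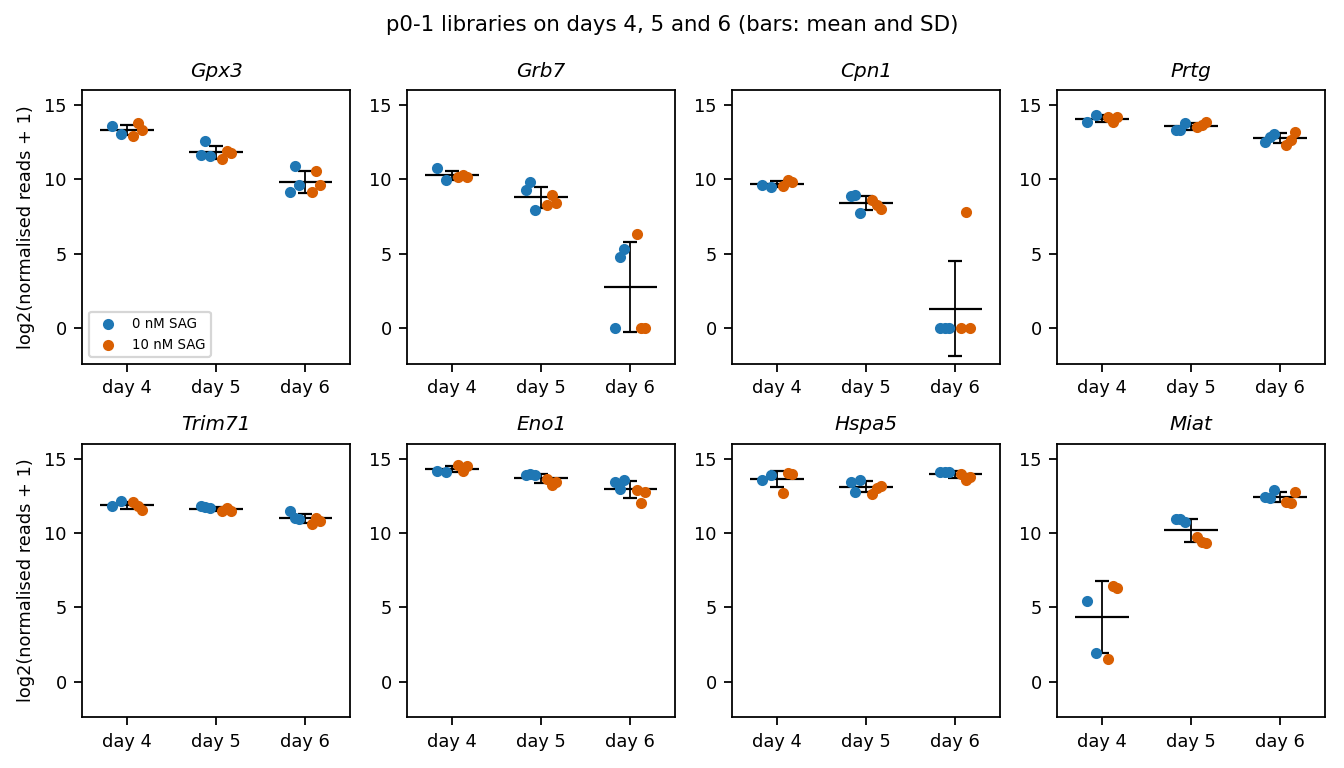
Values of 8 genes in the p0-1 libraries of days 4 (5 libraries), 5 (6) and 6 (6), as log2(normalised reads + 1) on the y axis by day; points are libraries coloured by SAG concentration, and bars give the mean and SD. Gpx3, Grb7, Cpn1, Prtg, Trim71 and Eno1 have lower means on each later day, Miat higher ones, and Hspa5 is lowest on day 5.

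Neuronal genes as a group were higher on day 6, although no single one was called. Of 20 tested neuronal genes 19 had a positive change (54.5% of all genes did), with a median of 2.02 on the log2 scale against 0.07 for all genes. At an unadjusted p under 0.05, 9 of the 20 were higher and 0 lower (5.01% and 2.77% of all genes). The summed level was between 1391 and 3682 normalised reads in the 6 libraries of day 5 and between 4669 and 7923 in those of day 6. The 2 ranges did not overlap, and day 6 was higher at each SAG concentration. Bulk libraries cannot tell more cells that express a gene from more RNA of it per cell. The gate selected SOX2, so whether early neurons that still held SOX2 protein were included was not tested.

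Elavl3 (HuC), a neuronal RNA-binding protein, came nearest to a call. Its values were 13.4, 37.4 and 45.3 at 0 nM and 153.5, 101.4 and 10.2 at 10 nM on day 5. On day 6 they were 484.3, 461.4 and 291.0 at 0 nM and 229.0, 474.3 and 412.1 at 10 nM, all above day 5. The log2 change was 3.22 (limma, SE 0.68, adjusted p = 0.0143). Gap43, a growth cone protein, was at 178.2 ± 110.4 and 1601 ± 887, Dcx, a microtubule protein of migrating neurons, at 50.3 ± 58.6 and 307.6 ± 190.2, and Map2, of dendrites, at 98.2 ± 89.9 and 460.7 ± 223.4. Their limma adjusted p-values were 0.343, 0.259 and 0.327. Tubb3, whose protein was in the antibody panel, was at 245.1 ± 389.5 and 486.0 ± 150.0 (limma adjusted p = 0.684). Of the 10 tested genes of neurons from other domains 6 had a positive change (median 0.50), and 0 were higher or lower at an unadjusted p under 0.05. The shares over all genes were 54.5% positive, 5.01% higher and 2.77% lower, so for 10 genes a count of 0 lies near them. The summed level of that list ran from 186.1 to 296.6 on day 5 and from 88.7 to 291.3 on day 6. Of the 6 tested factors of V0 and V1 interneurons 5 had a positive change (median 0.99), against 54.5% of all genes. Lhx1 and Sall3 were higher and 0 lower at an unadjusted p under 0.05 (5.01% and 2.77% of all genes). The summed level of the list ran from 460.8 to 1304 on day 5 and from 1209 to 2389 on day 6, with overlap. Lhx1 was at 0 in 5 libraries of day 5 and had reads in all 6 of day 6 (113.1 ± 122.9, limma adjusted p = 0.109). In the p2, pMN and p3 cells compared below its log2 change was 2.22, 3.64 and 2.62. Sall3 was at 504.9 ± 165.7 and 955.7 ± 119.8 without overlap (limma adjusted p = 0.4175). Evx1, which marks V0 neurons, was at 0 in all 12.

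Proneural and cell cycle exit genes stood next to the neuronal genes. Of 15 tested, 14 had a positive change (median 1.61), and 10 were higher and 0 lower at an unadjusted p under 0.05. The shares over all genes were 54.5% positive, 5.01% higher and 2.77% lower. Their summed level ran from 2978 to 7845 on day 5 and from 8537 to 13644 on day 6. Neurog1, which starts neurogenesis, was at 15.1 ± 5.9 on day 5 and at 81.1 ± 45.1 on day 6, with a limma adjusted p of 0.391. Gadd45g was at 1508 ± 736 and 2843 ± 655 (limma adjusted p = 0.192), and Cdkn1c, an inhibitor of the cell cycle, at 587.8 ± 553.1 and 1281 ± 790 (limma adjusted p = 0.631). The cell cycle list as a whole gave no such picture, with 18 of 37 members above 0, a median of -0.03, and 3 higher and 3 lower at an unadjusted p under 0.05.

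**Figure D3:**
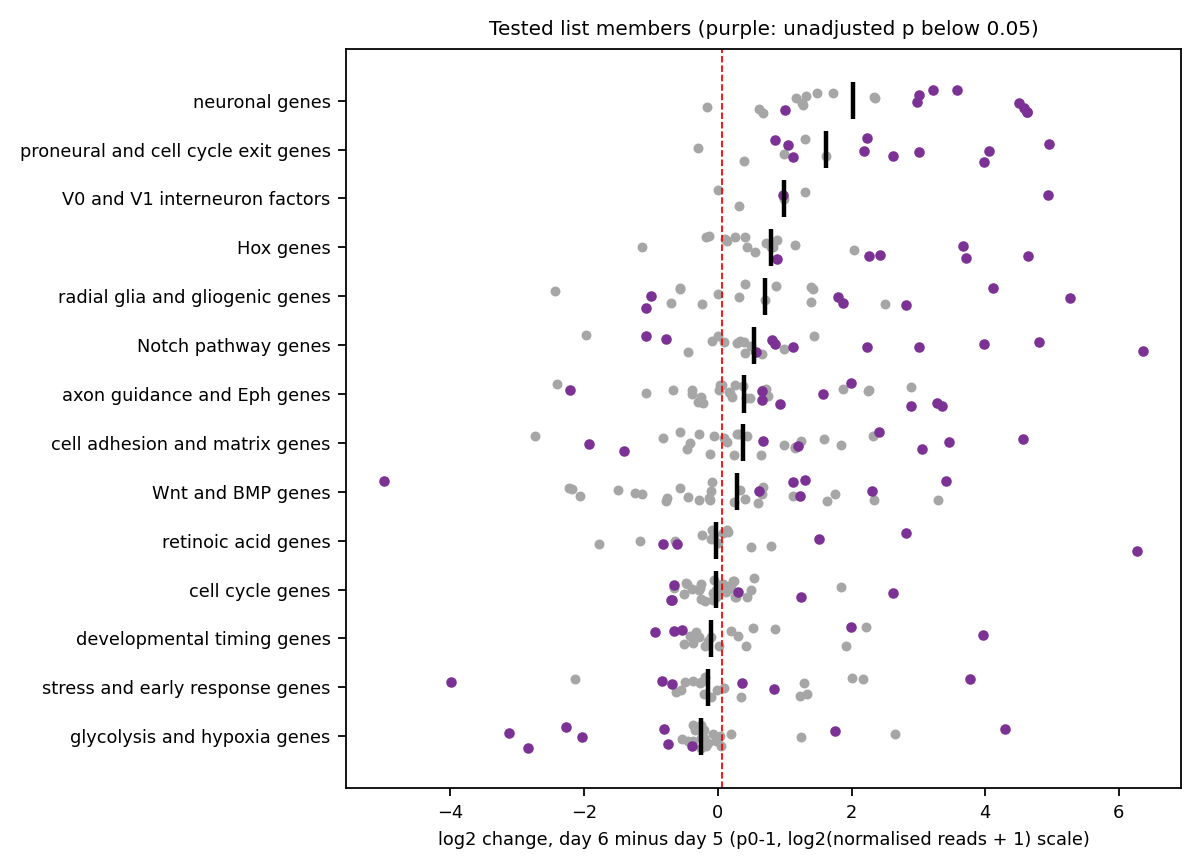
Log2 change of each tested member of 14 gene lists from day 5 to day 6 in p0-1 (x axis, on the log2(normalised reads + 1) scale), one row per list; purple points have an unadjusted limma p under 0.05, black bars mark list medians and the dashed line the median of all genes, 0.07. The neuronal and the proneural rows lie furthest to the right, with medians of 2.02 and 1.61, and the glycolysis row has the lowest median, -0.25.

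Of the Notch pathway genes, Dll3 and Dner were the members with an adjusted p under 0.05. Dll3, a Delta-like protein that acts inside the cell, was at 640.5, 698.1 and 362.7 at 0 nM and 791.2, 38.2 and 279.3 at 10 nM on day 5. On day 6 it was at 1501, 1688 and 1337 at 0 nM and 1864, 1254 and 1978 at 10 nM. All libraries of day 6 were above those of day 5, and the log2 change was 2.24 (limma, SE 0.49, adjusted p = 0.0178). Dner, a Delta-related protein of neurons, was at 0 in all 6 libraries of day 5 and at 182.2, 0, 243.3, 45.5, 266.8 and 548.7 on day 6 (limma adjusted p = 0.0126). Its day 6 mean was at least 71.5-fold above the 3 reads a library that a count of 0 allows. That limit covers counting error only, and 1 library of day 6 was itself at 0. The ligand Dll1 was at 885.2 ± 461.3 and 1965 ± 1010 (limma adjusted p = 0.293). Of the receptors, Notch1 was at 548.2 ± 210.7 and 943.1 ± 322.2 and Notch2 at 1472 ± 359 and 877.1 ± 268.1, opposite in sign and with limma adjusted p-values of 0.503 and 0.443. Of the targets, Hes5 was at 4827 ± 2317 and 6618 ± 2512, Hes1 at 823.2 ± 360.1 and 433.7 ± 270.3, and Nrarp, a feedback inhibitor, at 57.9 ± 92.4 and 322.7 ± 128.7, with limma adjusted p-values of 0.606, 0.429 and 0.159. Over the 24 tested members 18 had a positive change (median 0.54), and 9 were higher and 2 lower at an unadjusted p under 0.05. The shares over all genes were 54.5%, 5.01% and 2.77%. Of the 9 higher genes, Dll1, Dll3, Dll4, Mfng and Hes6 were also among the 10 higher proneural and cell cycle exit genes. The 2 lists are therefore not separate results.

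**Figure D4:**
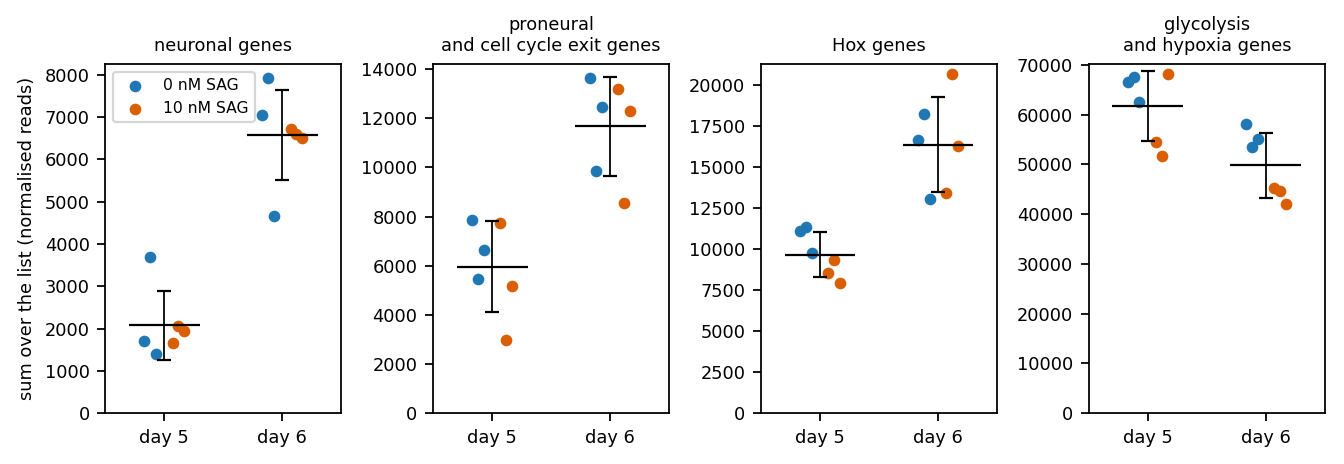
Summed normalised reads (y axis from 0) of 4 gene lists in each of the 12 p0-1 libraries, by day; points are coloured by SAG concentration and bars give the mean and SD of 6 libraries. The sums of the neuronal, proneural and Hox lists do not overlap between the days, and those of the glycolysis list do.

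Hox genes, which mark position along the head-to-tail axis, had mostly positive changes. Of 21 tested, 18 had a positive change (median 0.80) and 6 were higher at an unadjusted p under 0.05, namely Hoxa4, Hoxa5, Hoxb2, Hoxb5, Hoxb6 and Hoxd8. The shares over all genes were 54.5% and 5.01%. Hoxb6 had 10.1, 1.82 and 17.9 normalised reads at 0 nM and 0, 51.3 and 10.2 at 10 nM on day 5, and 310.2, 206.8 and 116.6 at 0 nM and 263.8, 262.1 and 156.0 at 10 nM on day 6. Its days did not overlap, and the log2 change was 4.64 (limma, SE 1.25, adjusted p = 0.12). Hoxb5 and Hoxa5 did not overlap between the days either, at 319.8 ± 137.5 and 1548 ± 725 and at 152.2 ± 58.3 and 827.5 ± 357.1, with limma adjusted p-values of 0.343 and 0.631. The summed level of the list ran from 7928 to 11327 on day 5 and from 13025 to 20641 on day 6.

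Of the 21 tested radial glia and gliogenic genes 13 had a positive change (median 0.70), against 54.5% of all genes. At an unadjusted p under 0.05, 5 were higher and 2 lower, against 5.01% and 2.77% of all genes. Slc1a3 (GLAST), a glutamate transporter of radial glia, was at 456.4 ± 316.4 and 1527 ± 1107 with a log2 change of 1.87 (limma, SE 0.41, adjusted p = 0.0207). Fabp7, a fatty acid binding protein of radial glia, had reads in 1 library of day 5 and in all 6 of day 6 (139.2 ± 105.3, limma adjusted p = 0.125), and Sox9 was at 158.6 ± 135.8 and 406.5 ± 214.6 (limma adjusted p = 0.313). Hes1 and Apoe were lower at an unadjusted p under 0.05. Sox10, Gfap, Pdgfra and Cspg4, which mark later glia, were at 0 in all 12 libraries.

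Glycolysis and hypoxia genes had mostly negative changes. Of 29 tested, 7 had a positive change (median -0.25), and 2 were higher and 7 lower at an unadjusted p under 0.05. The shares over all genes were 54.5%, 5.01% and 2.77%. Eno1, an enolase, was at 15189, 16143 and 14958 at 0 nM and 12519, 9584 and 11110 at 10 nM on day 5, and at 11069, 7779 and 12176 at 0 nM and 7404, 4069 and 7061 at 10 nM on day 6. The days separated at each concentration but overlapped when pooled. Its log2 change was -0.74 (limma, SE 0.14, adjusted p = 0.0062), under 2-fold, and Eno1b, a near-identical copy with which it may share reads, gave -0.79 (limma adjusted p = 0.0239). Gapdh was at 12102 ± 1305 and 9332 ± 1390 (log2 change -0.38, limma adjusted p = 0.211), and Slc2a3, a glucose transporter, at 1134 ± 657 and 308.8 ± 218.5 (log2 change -2.04, limma adjusted p = 0.259).

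Among stress and early response genes, 10 of 24 had a positive change (median -0.14), with 3 higher and 3 lower (Egr1, Ier2 and Cdkn1a) at an unadjusted p under 0.05. The shares over all genes were 54.5%, 5.01% and 2.77%. The chaperone Hspa5 (BiP) of the endoplasmic reticulum was at 9034 ± 2310 on day 5 and 15894 ± 2329 on day 6, a log2 change of 0.84 (limma, SE 0.16, adjusted p = 0.0062). Calr (calreticulin), of the same compartment but not on the list, was at 3196 ± 1108 and 5406 ± 1667 (log2 change 0.77, limma adjusted p = 0.0176), and Hsp90b1 was at 10056 ± 2332 and 12830 ± 2557 (limma adjusted p = 0.446). All 3 changes were under 2-fold, and the day 4 mean of Hspa5 (13333) lay between the means of days 5 and 6.

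The remaining genes at an adjusted p under 0.05 in limma had diverse roles. Ctnna2 (neuronal alpha-catenin), Nmnat2 (an NAD synthetase of axons), Filip1, S1pr1 (a sphingosine phosphate receptor), Pappa (a protease of IGF-binding proteins), D930028M14Rik, Rnd3, Pam (which amidates peptides), Bmp1 (a procollagen protease) and Nnat were higher, with log2 changes from 0.80 (Nnat) to 6.33 (Ctnna2). Ctsz (a lysosomal protease), Porcn (which acylates Wnt ligands) and Ppp1r16b were lower, with log2 changes of -1.36, -1.99 and -2.99. The days did not overlap for Ctnna2, Nmnat2, Bmp1, Ctsz and Porcn. Miat, a long noncoding RNA of neural tissue, gave different answers in different fits. It was at 1952, 1964 and 1677 at 0 nM and 857.6, 658.8 and 654.0 at 10 nM on day 5, and at 5393, 5213 and 7520 at 0 nM and 4321, 4169 and 6806 at 10 nM on day 6, without overlap. The log2 change was 2.23 (limma, SE 0.90, adjusted p = 0.474), while limma on the 12 libraries alone with a mean for each of their 4 groups gave an adjusted p of 0.000984 and called it as the only gene.

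The summed levels of the axon guidance and the Wnt and BMP lists did not overlap between the days either, though the gaps were narrow. Abundant genes weigh most in a sum, and how often sums over other sets of genes separate was not tested. Of 34 axon guidance genes 25 had a positive change (median 0.39), with 8 higher, among them Robo1 and Robo3, and 1 lower at an unadjusted p under 0.05. Their sum ran from 17903 to 22682 on day 5 and from 23019 to 30731 on day 6. For 30 cell adhesion genes these numbers were 20, 0.38, 6 and 2, and for 34 Wnt and BMP genes, which include Tcf7l2, they were 18, 0.29, 6 and 1. The Wnt and BMP sum ran from 16349 to 23944 on day 5 and from 24157 to 31351 on day 6. Over all genes, 54.5% had a positive change, and 5.01% were higher and 2.77% lower at an unadjusted p under 0.05. The Wnt and BMP members with a positive change were thus near the share of all genes. Of 22 FGF genes 12 had a positive change (median 0.04) and 2 were lower, and of 22 sterol synthesis genes 16 did (median 0.15) and Mvk alone was higher. Of 13 pan-progenitor genes 5 had a positive change, with 2 higher and 1 lower, and of 5 dorsal and 11 ventral progenitor genes 3 and 4 had one, with 1 and 3 higher. For 16 neuromesodermal genes, 11 pluripotency genes and 12 long noncoding RNAs tested, the members with a positive change were 8, 7 and 5, and 2 of each list were higher at an unadjusted p under 0.05. Several of these counts lie near the shares of all genes. Tested genes at 0 in all 12 libraries count as not positive. Of the listed genes, 7 neuromesodermal and 3 ventral ones were at 0 in all 12. The list of long noncoding and RNA quality genes had a summed level of 65830 to 93821 (median 77410) on day 5 and 77622 to 123031 (median 108936) on day 6. Kcnq1ot1, a long noncoding RNA of an imprinted locus, was at 23310 ± 3252 and 36161 ± 7392 without overlap (limma adjusted p = 0.529), and the part of this shift in the other lists was not tested. Of the 10 tested p0-1 identity factors 8 had a positive change (median 0.68), with medians of 0.05 at 0 nM and 0.60 at 10 nM. Prdm12 and Nkx6-2 were higher at an unadjusted p under 0.05. The log2 change of Prdm12 was 1.63 at 0 nM and 3.66 at 10 nM. That of Nkx6-2 was -0.035 and 6.185, a difference with an unadjusted limma p of 0.0107 that did not pass after adjustment. Markers of cells that the gate should lack were low. The summed neural crest markers ran from 180.2 to 929.3 on day 5 and from 103.9 to 773.0 on day 6, with Sox10 at 0. Mesoderm markers ran from 60.9 to 316.7 and from 10.8 to 312.3 (7 of 14 at 0 in all 12 libraries), endoderm markers from 67.5 to 558.6 and from 55.9 to 602.9 (Afp and Ttr at 0), and fibroblast markers, which could come from feeders, from 50.8 to 662.5 and from 6.43 to 334.6 (5 of 10 at 0). Blood and endothelial markers reached 78.6 at most. Of the tested markers in these 5 lists 0 were higher at an unadjusted p under 0.05, and Tcf15 of the mesoderm list was lower.

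To ask whether SAG altered the step from day 5 to day 6, the change at 10 nM was compared with that at 0 nM. In limma, 0 genes passed (0% of 13964), also at an adjusted p under 0.05, and 544 had an unadjusted p under 0.05 (3.9%). DESeq2 on the same contrast called 407. The 9 called genes had the same sign at both concentrations, which calling them on the mean of the 2 changes favours. The difference is also less precise than the change, with a standard error for Mir9-3hg of 2.52 against 1.26. The change of Srgap3 differed most among them, by -2.86 (limma, SE 1.01, unadjusted p 0.00681, adjusted p 1.0), which did not pass after adjustment over all genes. Of the Shh target genes, Ptch1 was at 722.6 ± 281.9 and 1269 ± 656, Gli1 at 76.6 ± 94.1 and 124.2 ± 99.0, and Hhip at 47.3 ± 79.4 and 142.4 ± 115.5, each higher at an unadjusted p under 0.05 and none after adjustment (limma adjusted p = 0.365, 0.241 and 0.529). Their log2 changes were 0.54, 2.46 and 2.39 without SAG and 0.98, 1.66 and 3.56 with 10 nM.

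To ask whether these changes were particular to p0-1, the same step was computed in p2 (10 and 100 nM SAG, 12 libraries) and in pMN and p3 (100 and 500 nM, 11 libraries each). As p0-1 and p2 at 10 nM shared dishes, these types are not independent. The difference between the change in p0-1 and the mean of the other 3 types passed for 0 genes in limma (0%), also at an adjusted p under 0.05, and 701 genes had an unadjusted p under 0.05 (5.02%). All 9 called genes had the same sign in p2, pMN and p3. So did 32 of the 33 genes at an adjusted p under 0.05, the exception being Pam, while 23.4% of all genes had one sign in all 4 types. Because the genes were chosen in p0-1, a larger change there than in another type cannot be told apart from an effect of the choice. In p2, 21 genes were called (0.15%), and Cpn1, Cyp26b1 and Gpx3 were common to both, 33.3% of the p0-1 calls and 14.3% of the p2 calls. In pMN, 4 genes were called (0.0286%), and in p3 there were 3 (0.0215%), 0 of them among the 9. The log2 change of Cyp26b1 was 6.27 in p0-1, 6.64 in p2, 5.41 in pMN and 5.61 in p3. That of Mir9-3hg was 6.85, 4.21, 2.56 and 6.24 and that of Gpx3 -1.98, -2.48, -1.67 and -0.88 in the same order. Srgap3 was one of the genes with a smaller value in each of the other types, at 1.10, 0.77 and 0.59 against 2.73, and that difference also missed the threshold.

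**Figure D5:**
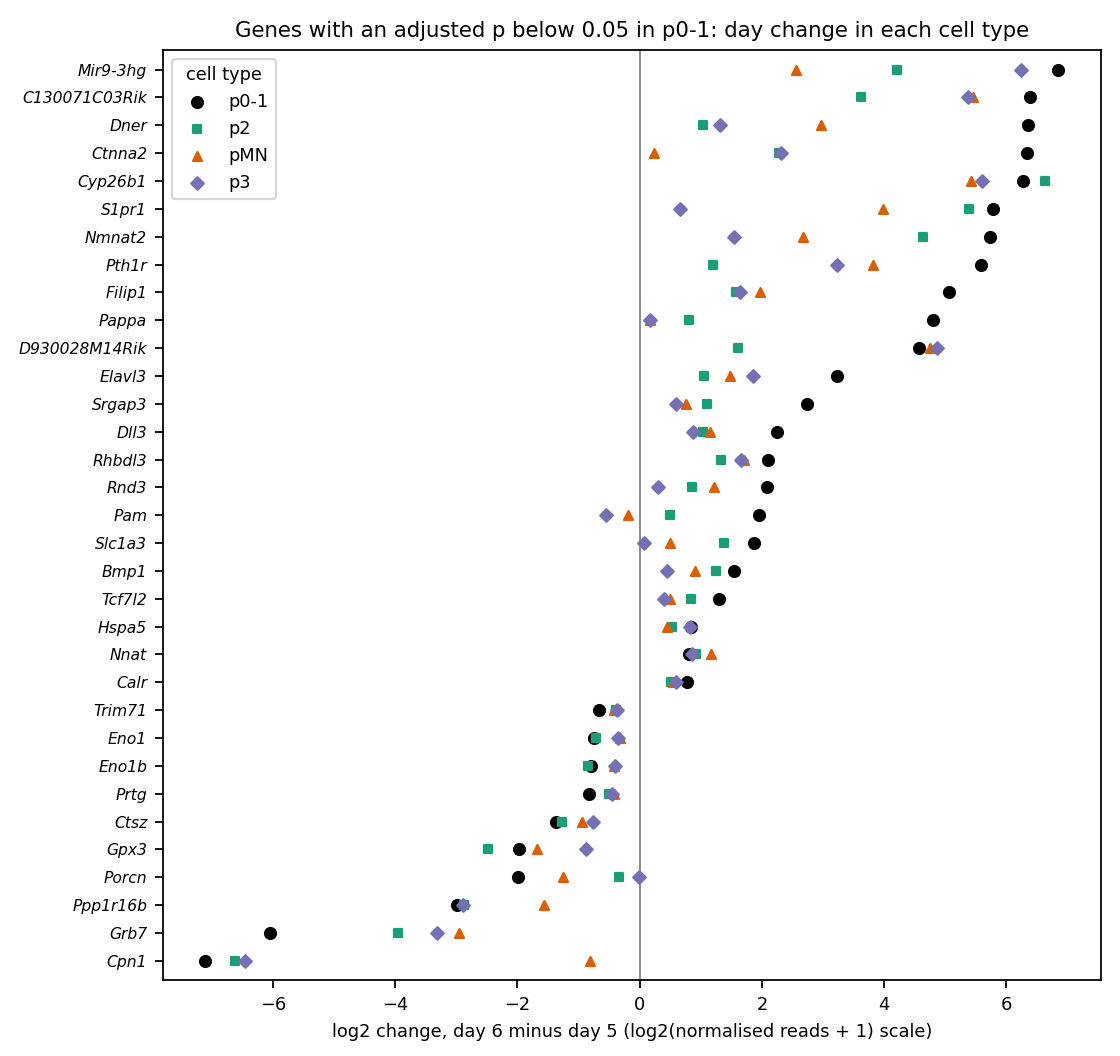
Log2 change from day 5 to day 6 (x axis, log2(normalised reads + 1) scale) of the 33 genes with a limma adjusted p under 0.05 in p0-1, one gene per row; black circles are p0-1, green squares p2, orange triangles pMN and violet diamonds p3. All markers of a row lie on one side of 0 except for Pam, and Cyp26b1 lies between 5.41 and 6.64 in all 4 types.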

How the data were processed

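RNA of fixed, sorted cells was amplified as full-length cDNA from poly(A) RNA, with ERCC spike-ins, and sequenced. The study describes this RNA as low in quality and limited in amount. Per the study's methods, reads were aligned with STAR within an nf-core pipeline to mm10 plus the spike-ins and counted per gene with featureCounts over refGene, ignoring duplicates, and libraries of low quality were removed. Ignoring duplicates lowers short and abundant genes most, and strand use is not stated. The deposited values are a signal per gene, made by the authors from counts of reads by dividing each library by its size factor. One read was worth 0.717 to 1.359, and 100% of 834400 values above 0 were whole multiples within 0.001 of a read, so reads could be recovered. The deposited gene annotation gave positions. In it, exons of Pax6, Nkx2-2, Nkx6-2, Notch1, Gli1, Pou2f2, Dner, C130071C03Rik, Ctsz, Kcnq1ot1, Hoxb2 and Hoxd8 overlap those of another gene, so their values are less certain, and none of the 9 called genes does.

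The study states no test for expression. In R 4.3.3, limma 3.58.1 was fitted with an intensity trend to log2(value + 1), which understates changes of low genes, over genes averaging 10 or more in the 65 libraries (13964 of 25239), with 25 group means. Tests were two-sided with Benjamini-Hochberg adjustment, and every p in the text without another test's name is from this fit. Means are ± SD. edgeR 4.0.16 and DESeq2 1.42.0 were run on recovered reads as alternatives, with other pseudocounts, filters, weights and normalisation and with each library left out. The scripts were tested on simulated data. No pair of the 12 libraries was identical (0 pairs). Reads carry no molecular identifiers, so limits cover counting error only. They do not cover the spread between libraries of one group, where Cpn1 was at 0, 218.7 and 0 normalised reads on day 6 at 10 nM.

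Members and gene lists were chosen with earlier results of these data known. Named genes were the sorting and p0-1 identity factors, called genes averaging 100 or more on one day with one sign at both concentrations (at most 10 a direction), and at most 4 called or otherwise 2 lowest-p members of each of 31 lists. Others, among them Prtg, Lin28a, Crabp1, Crabp2, Dhrs3, Dll1, Nrarp, Gap43, Dcx, Map2, Pou3f3, Hoxa5 and Calr, were named after their values were seen. Not every list member or p0-1 factor is described, and some genes are not reported here. The 12 mitochondrially encoded genes listed had 0 entries in the table.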

Additional observations from a re-analysis of the deposited data

Results flagged for a closer look

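Among 24 sets of 6 libraries of one day examined for a value far from the rest, 2 had one. Chance gives such a library in about 1 of 20 sets drawn from 1 normal distribution. Each set here pooled 0 and 10 nM SAG, and some held zeros, so that rate need not apply. In Cpn1 the second 10 nM library of day 6 stood at 218.7 normalised reads while the other 5 libraries of that day were at 0. In Gpx3 the second 0 nM library of day 5 stood at 6128 normalised reads, the others between 2677 and 3759. Both genes kept their direction in every alternative that was run, and the part of either library in the result was not tested beyond leaving it out.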

How the results depend on the processing

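The number of genes called between the days was 9 and depended on the fit. It was 16 with a pseudocount of 10, 26 at an adjusted p under 0.05, 4 with edgeR and 488 with DESeq2, of which 331 were higher and 157 lower. With only the 12 libraries in the fit it was 1 (Miat), and with SAG as a block in those libraries, an alternative added after the data were seen, it was 0. Without 1 library at a time it ran from 0 (without the first 0 nM library of day 6) to 19 (without the third 0 nM library of day 5), with 2 without the second 0 nM library of day 5 or the first 10 nM library of day 6, 3 without the second 10 nM library of day 5, 4 without the second 10 nM library of day 6 and 5 without the first 0 nM library of day 5. For the difference between SAG concentrations the count of 0 became 1 with no filter on low values, 407 with DESeq2, and ran from 0 to 1 without 1 library. For the difference between p0-1 and the other types it became 462 with DESeq2 and ran from 0 to 2 without 1 library. The cause of these differences was not tested, beyond the fewer libraries that some fits hold. The library measures stayed on their side of the threshold in each alternative, with differences of 252208 to 999718 reads, 398.0 to 803.9 genes and -0.33 to -0.07 percentage points without 1 library. Of the 78 single genes whose change is given, 0 changed direction in any alternative. Replicate numbers are not said to be shared between groups. Same-numbered libraries of different p0-1 groups had correlations of deviations from -0.00054 to 0.106 (6 pairs, median 0.036). Differently numbered ones had -0.078 to 0.017 (12 pairs, median -0.011), and 10 of 12 libraries lay closest to their own number. The main fit did not pair libraries by number, and whether a number marks a shared source was not tested. A replicate block gave 13 calls, and 0 for both differences. The median standard error of 0.83 (log2) limits what 6 libraries a day can show.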
